A study of Mus musculus with 6 samples.

Results

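The imprinted growth genes described here are Igf2, H19, Cdkn1c, Plagl1, Igf2r, Grb10, Peg3, Mest, Dlk1 and Ndn. They were taken by gene name, and all 10 were found among the 54532 genes of the deposited table. Messenger RNA was measured in hearts of Ythdc1-CKO mice (CKO, 3 libraries), in which the gene for the nuclear m6A reader YTHDC1 is conditionally deleted, and in hearts of Ythdc1flox/flox mice (flox control, 3 libraries), which carry the floxed alleles. Both genotypes received normal chow for 15 days, and the labels call the libraries of a group independent biological replicates. The labels give no age, sex or Cre driver and do not name the deleted part of the gene. HKO in the series text is taken here as the CKO of the labels. The question put to these genes is whether their messenger RNA level in the heart changes with loss of Ythdc1.

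Imprinted genes are expressed mainly from the copy inherited from one parent. In mice, Igf2, Plagl1, Peg3, Mest, Dlk1 and Ndn are expressed from the paternal copy, and H19, Cdkn1c and Igf2r from the maternal copy, as is Grb10 in most tissues outside the brain. Many of them act on body growth before and shortly after birth, paternally expressed genes often promoting it and maternally expressed genes often restraining it, and many fall in level in heart and other organs as postnatal growth slows. The FPKM values (fragments scaled to gene length and to a denominator set for each library) sum both parental copies, so the parent of origin was not measured.

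Ythdc1 itself was lower in CKO hearts. It measured 2.39, 2.57 and 2.34 FPKM in CKO libraries 1, 2 and 3, against 4.31, 3.64 and 4.10 FPKM in flox control libraries 1, 2 and 3 (log2 fold change -0.54, SE 0.09, limma adjusted p = 0.015). By exact permutation (two-sided), p was 0.1, and no arrangement of 3 libraries against 3 can go lower. This call was lost without CKO 3 (limma adjusted p = 0.054), flox control 1 (0.0712) or flox control 3 (0.0648). The FPKM values correspond to 17434296 to 19360428 gene-assigned reads per library. The cardiomyocyte markers Myh6, Tnnt2, Actn2, Ttn, Ryr2, Myl2, Pln and Tnni3 were all detected in every library. CKO 3 stood apart in sex-linked genes, with 12.4 FPKM of Xist, against at most 0.0155 FPKM in the other libraries, and 0.350 FPKM of the Y-linked gene Ddx3y, against 10.8 to 15.9 FPKM in the others. This is the pattern of a female heart in CKO 3 and of male hearts in the other libraries, though the labels give no sex. Sex was thus likely unbalanced between the groups, and its part in the results was not tested.

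The 12144 genes averaging 1 FPKM or more entered limma as log2(FPKM + 1), and a gene was called at an adjusted p under 0.05 over all of them. By this rule 11.2% of tested genes were called. Of the 10 imprinted growth genes, 9 passed the filter and Dlk1 did not. None of the 9 was called by limma, while 2 of them, Plagl1 and Igf2r, had an unadjusted p under 0.05, as did 27.7% of all tested genes. limma voom on the recovered reads called 1, Plagl1. With 1 library left out, limma called 2 without CKO 1 (Grb10 and Peg3), 1 without CKO 2 (Mest), 1 without CKO 3 (Igf2r) and 0 without any 1 flox control. Log2 fold changes were positive in 6 of the 9 and negative in 3, with a median of 0.10, against a median of 0.01 over all tested genes. On the log2(FPKM + 1) scale, folds of low genes are understated.

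The groups did not overlap for 2 of the 9 tested members, Plagl1 and Igf2r, both with every CKO library above every flox control library. Groups that do not overlap in either direction made up 34.3% of all tested genes, so the members' share in either direction was not above the background. Those with CKO higher made up 16.9% of all tested genes, and 2 of 9 members are too few to set apart from that share. In bulk tissue, fewer cells of a type and less RNA per cell cannot be told apart.

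The promoter windows of these 2 genes are shown because their groups did not overlap. Sequences are from RefSeq on GRCm38.p6 and run from 250 bases before to 50 bases after an annotated start, and each CG dinucleotide is in capitals. Both windows are rich in CG dinucleotides, the bases at which an imprinted promoter can be methylated on a single parental copy. The window of Plagl1 (chr10:13090582-13090881, plus strand) held 26 of them and that of Igf2r (chr17:12769657-12769956, minus strand) held 34, against a median of 7 over 32851 windows. Windows with at least as many made up 16.9% of all windows for Plagl1 and 7.73% for Igf2r. Such richness was not particular to these genes. Of the members whose groups overlapped, Grb10 had windows with 45 and 9, and Igf2 had windows with 2 to 24.
Plagl1: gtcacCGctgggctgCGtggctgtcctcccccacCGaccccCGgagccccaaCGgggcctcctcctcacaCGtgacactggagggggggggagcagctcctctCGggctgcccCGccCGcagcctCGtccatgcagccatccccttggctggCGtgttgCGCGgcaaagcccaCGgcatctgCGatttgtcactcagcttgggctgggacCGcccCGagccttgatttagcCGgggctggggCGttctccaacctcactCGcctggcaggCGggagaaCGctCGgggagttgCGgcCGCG
Igf2r: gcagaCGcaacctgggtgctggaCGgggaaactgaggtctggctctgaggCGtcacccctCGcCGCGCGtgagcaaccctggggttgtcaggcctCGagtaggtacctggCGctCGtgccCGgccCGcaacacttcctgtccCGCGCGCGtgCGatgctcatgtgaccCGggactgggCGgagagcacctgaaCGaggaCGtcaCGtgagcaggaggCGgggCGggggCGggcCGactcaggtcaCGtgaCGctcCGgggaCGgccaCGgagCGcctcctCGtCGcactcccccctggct

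**Figure D1:**
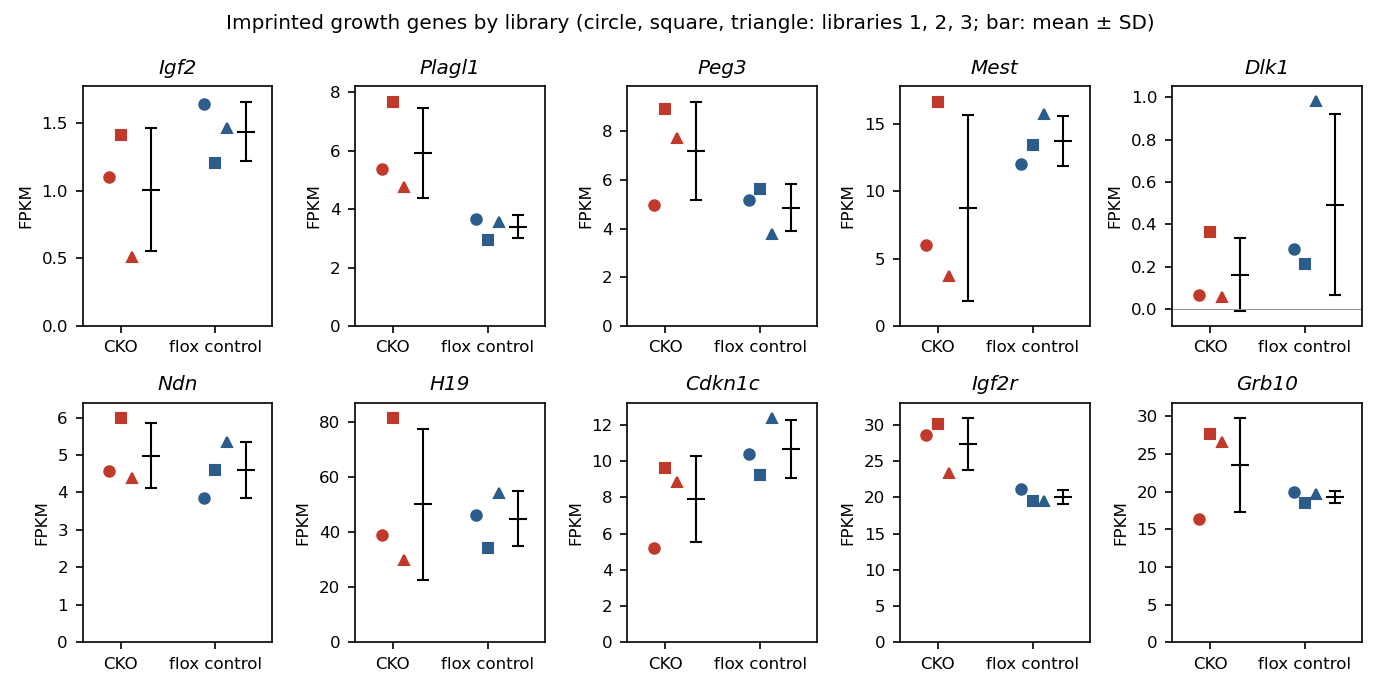
FPKM of the 10 imprinted growth genes in each library (y axis, linear, a separate range for each gene), CKO libraries left in red and flox control libraries right in blue, with the mean and SD of 3 libraries in black. Plagl1 and Igf2r are the genes whose groups do not overlap, and CKO 2 (red square) is the highest CKO library for all 10 genes.

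Plagl1 (ENSMUSG00000019817, GRCm38 chromosome 10, 13060504 to 13131694, plus strand) encodes a zinc finger transcription factor, also called Zac1, that regulates other imprinted genes. It measured 5.37, 7.68 and 4.74 FPKM in CKO 1, 2 and 3, against 3.68, 2.94 and 3.55 FPKM in flox controls 1, 2 and 3. Every CKO library was above every flox control, and CKO 2 was the highest. The means were 5.93 ± 1.55 FPKM in CKO and 3.39 ± 0.394 FPKM in flox controls (SD, n = 3 each). The ratio of the means was 1.75. On the log2 scale the difference was 0.64 (SE 0.17, 95% interval 0.24 to 1.03), and limma's adjusted p of 0.0557 missed the threshold. It stayed above the threshold when each library was left out in turn (0.0614 to 0.148), and limma voom on recovered reads gave an adjusted p of 0.043. Its close relative Plagl2, which is not imprinted, had a log2 fold change of 0.22 (limma adjusted p = 0.295).

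Plagl1 protein is known to bind a G-run followed by a C-run, here searched as GGGGCCCC, which reads the same on both strands. Of 14 windows of the 8 members matched in RefSeq's table, 1 held these letters, against 1.08% of all 32851 windows. That window belongs to Peg3 (chr7:6730370-6730669, minus strand), shown with the motif in capitals. Its first motif base is base 50 of the window, counted from 1 at the 5′ end. A match of letters is a description and not evidence of binding.
Peg3: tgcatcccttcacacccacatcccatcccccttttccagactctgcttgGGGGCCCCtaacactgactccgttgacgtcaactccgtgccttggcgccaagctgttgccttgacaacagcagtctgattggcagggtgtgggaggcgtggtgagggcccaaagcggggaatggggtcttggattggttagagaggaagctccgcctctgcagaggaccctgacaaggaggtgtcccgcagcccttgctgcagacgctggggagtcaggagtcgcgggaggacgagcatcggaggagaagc

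Peg3 (ENSMUSG00000002265, chromosome 7, 6703892 to 6730431, minus strand) encodes another zinc finger protein of paternal origin, whose loss reduces growth in mice. It measured 4.96, 8.90 and 7.73 FPKM in CKO 1, 2 and 3, against 5.18, 5.65 and 3.76 FPKM in flox controls 1, 2 and 3. CKO 2 and CKO 3 were above all flox controls, and CKO 1 lay among them. Its log2 fold change of 0.46 did not pass (95% interval -0.05 to 0.98, limma adjusted p = 0.218). Without CKO 1 it was 0.68 and passed (limma adjusted p = 0.0469).

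The ligand and its receptors follow. Igf2 (ENSMUSG00000048583, chromosome 7, 142650766 to 142666816, minus strand) encodes insulin-like growth factor 2, the main fetal growth factor of this family, which signals through the IGF1 receptor. It was near the floor of the test. It measured 1.10, 1.41 and 0.511 FPKM in CKO 1, 2 and 3, from 113, 157 and 53 reads, against 1.64, 1.204 and 1.46 FPKM in flox controls 1, 2 and 3, from 159, 121 and 167 reads. CKO 3 and CKO 1 lay below all flox controls, and CKO 2 lay among them. For Igf2 the log2 fold change was -0.30 (95% interval -0.76 to 0.15, limma adjusted p = 0.358). It was -0.11 without CKO 3 (0.680), and -0.56 with a pseudocount of 0.1 (0.368). In the GENCODE M21 annotation, Igf2 shares 62.8% of its exonic bases with Gm49394 on the same strand, a gene listed at 0 in all 6 libraries. How reads in shared bases were assigned is not given in the sources used here, so the Igf2 level is uncertain.

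Igf2r (ENSMUSG00000023830, chromosome 17, 12682406 to 12769664, minus strand) encodes the cation-independent mannose 6-phosphate receptor, which takes IGF2 up for degradation in lysosomes and sorts lysosomal enzymes. It measured 28.5, 30.2 and 23.4 FPKM in CKO 1, 2 and 3, against 21.1, 19.4 and 19.5 FPKM in flox controls 1, 2 and 3. Each CKO library exceeded each flox control, with the smallest gap at CKO 3. The means were 27.4 ± 3.56 FPKM in CKO and 20.01 ± 0.981 FPKM in flox controls (SD, n = 3 each), a ratio of 1.37. In log2 units the difference was 0.43 (SE 0.12, 95% interval 0.15 to 0.70) and limma's adjusted p was 0.0645. Without CKO 3 the log2 fold change was 0.53 and passed (limma adjusted p = 0.0486). Airn, the non-coding RNA that silences the paternal Igf2r copy, lies antisense to it without sharing an exonic base, and measured 2.01, 2.19 and 1.87 FPKM in CKO 1, 2 and 3, against 2.55, 2.31 and 2.50 FPKM in flox controls 1, 2 and 3. Its groups did not overlap either, with all CKO libraries below, and it was not called (log2 fold change -0.19, limma adjusted p = 0.222). Reads inside Igf2r introns cannot be given a strand here. Slc22a3, a cation transporter gene beside Igf2r named after its values were seen, was under the filter with 9, 8 and 10 reads in CKO 1, 2 and 3, against 49, 31 and 30 reads in flox controls 1, 2 and 3.

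Grb10 (ENSMUSG00000020176, chromosome 11, 11930508 to 12038683, minus strand) encodes an adaptor that binds the insulin and IGF1 receptors and limits their signal. It measured 16.4, 27.6 and 26.6 FPKM in CKO 1, 2 and 3, against 19.9, 18.5 and 19.7 FPKM in flox controls 1, 2 and 3. CKO 2 and CKO 3 were above all flox controls and CKO 1 was below all of them. Its log2 fold change of 0.24 did not pass (95% interval -0.23 to 0.70, limma adjusted p = 0.488). Without CKO 1 it was 0.47 and passed (limma adjusted p = 0.0321), while it was 0.11 without CKO 2 (0.796) and 0.13 without CKO 3 (0.752).

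H19 (ENSMUSG00000000031, chromosome 7, 142575529 to 142578143, minus strand) is a long non-coding RNA that shares enhancers with Igf2 and is made from the other parental copy. It had the highest FPKM of the 10 genes in every library. It measured 39.1, 81.5 and 29.8 FPKM in CKO 1, 2 and 3, against 46.1, 34.4 and 54.4 FPKM in flox controls 1, 2 and 3. CKO 2 was the highest library and CKO 3 the lowest, so the flox controls lay within the CKO range. The log2 fold change was 0.05 (95% interval -0.83 to 0.92, limma adjusted p = 0.953), and it was -0.36 without CKO 2 and -0.13 without flox control 2. Its interval includes changes of nearly 1 log2 unit in each direction. The microRNA gene Mir675, which lies within an H19 exon on the same strand, was listed at 0 in all 6 libraries. How reads in these shared bases were assigned is not given in the sources used here.

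Cdkn1c (ENSMUSG00000037664, chromosome 7, 143458339 to 143461050, minus strand) encodes p57Kip2, an inhibitor of cyclin-dependent kinases. It measured 5.19, 9.65 and 8.88 FPKM in CKO 1, 2 and 3, against 10.4, 9.24 and 12.4 FPKM in flox controls 1, 2 and 3. CKO 1 and CKO 3 were below all flox controls, and CKO 2 was above flox control 2. The log2 fold change was -0.42 (95% interval -0.94 to 0.10, limma adjusted p = 0.267), and -0.18 without CKO 1. An antisense gene, Gm44732, covers 30.7% of the exonic bases of Cdkn1c and held 1 read over all 6 libraries. Kcnq1ot1, the paternally expressed non-coding RNA of the same imprinted domain, measured 0.0622 to 0.0712 FPKM in CKO and 0.0575 to 0.0877 FPKM in flox controls, under the filter.

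Mest (ENSMUSG00000051855, chromosome 6, 30723547 to 30748465, plus strand), a marker of growing mesodermal tissue with an alpha/beta hydrolase fold, had the largest SD of log2(FPKM + 1) among the CKO hearts of the 10 genes. It measured 5.99, 16.6 and 3.69 FPKM in CKO 1, 2 and 3, against 12.1, 13.4 and 15.7 FPKM in flox controls 1, 2 and 3. CKO 1 and CKO 3 were below all flox controls and CKO 2 was above all of them. The means were 8.78 ± 6.91 FPKM in CKO and 13.7 ± 1.84 FPKM in flox controls (SD, n = 3 each). This gave a log2 fold change of -0.81 (SE 0.45, 95% interval -1.89 to 0.26, limma adjusted p = 0.293). Without CKO 2 it was -1.35 and passed (limma adjusted p = 0.0297), and without CKO 3 it was -0.40 (0.581). Copg2 on the opposite strand covers 23.1% of the exonic bases of Mest, and its reads numbered 788, 849 and 959 in CKO 1, 2 and 3, against 746, 747 and 874 in flox controls 1, 2 and 3. Reads of the shared bases cannot be told apart without strand.

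Dlk1 (ENSMUSG00000040856, chromosome 12, 109452823 to 109463336, plus strand) encodes a membrane protein related to Notch ligands that restrains fat cell differentiation. It was under the filter in these hearts. It measured 0.0690, 0.363 and 0.0585 FPKM in CKO 1, 2 and 3, from 7, 40 and 6 reads, against 0.282, 0.211 and 0.984 FPKM in flox controls 1, 2 and 3, from 27, 21 and 111 reads. CKO 1 and CKO 3 were below all flox controls and CKO 2 was between them. Exact permutation (two-sided) gave p = 0.3, and with no filter limma gave a log2 fold change of -0.33 (adjusted p = 0.518). Meg3, the maternally expressed non-coding RNA of the Dlk1 domain, measured 3.38, 6.44 and 4.10 FPKM in CKO 1, 2 and 3, against 4.01, 3.37 and 5.49 FPKM in flox controls 1, 2 and 3. Its log2 fold change was 0.08 (limma adjusted p = 0.869). Rtl1, a retrotransposon-derived gene of the same domain named after its values were seen, was under the filter with 66, 29 and 21 reads in CKO 1, 2 and 3, against 3, 10 and 15 reads in flox controls 1, 2 and 3. Rtl1 has an antisense transcript, and its reads cannot be given a strand here.

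Ndn (ENSMUSG00000033585, chromosome 7, 62346569 to 62350262, plus strand) encodes necdin, a MAGE family protein that restrains the cell cycle in neurons. It measured 4.59, 5.98 and 4.38 FPKM in CKO 1, 2 and 3, against 3.84, 4.59 and 5.34 FPKM in flox controls 1, 2 and 3. The groups overlapped over most of their range. The log2 fold change was 0.10 (95% interval -0.25 to 0.44, limma adjusted p = 0.715). Its imprinted neighbour Magel2 held 0 reads in all CKO libraries, against 1, 1 and 2 reads in flox controls 1, 2 and 3.

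**Figure D2:**
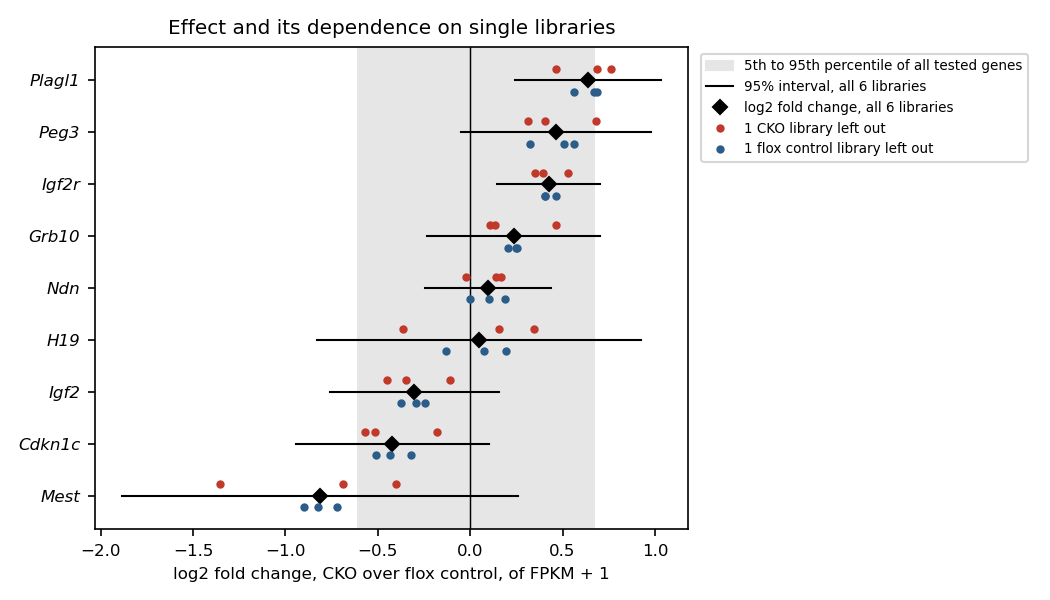
Log2 fold change of FPKM + 1, CKO over flox control (x axis), for the 9 tested imprinted growth genes (y axis), with limma's 95% interval in black, values with 1 CKO library left out in red and with 1 flox control left out in blue; the grey band holds the 5th to 95th percentile of all tested genes. The intervals of Plagl1 and Igf2r lie above 0, those of the other 7 genes cross it, and H19 and Mest shift most when a CKO library is left out.

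Among the tested members, the spread among libraries was wider in CKO hearts. The SD of log2(FPKM + 1) was larger in CKO than in flox controls for all 9 tested members, against 60.3% of all tested genes, and for Dlk1 it was smaller. All 9 were highest among CKO libraries in CKO 2, so they are not separate observations of spread. The SDs were computed on the deposited FPKM only. It was 0.98 in CKO and 0.18 in flox controls for Mest, and 0.73 in CKO and 0.33 in flox controls for H19. The median over all tested genes was 0.15 in CKO and 0.13 in flox controls. The SD of Mest in CKO was larger than that of 98.4% of tested genes, and that of H19 larger than 96.6%. Of the tested members, Igf2r (0.19) and Ndn (0.20) varied least among the CKO libraries.

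A shared order of the CKO libraries was noticed after the values were seen. CKO 2 held the highest CKO value of all 10 members, and CKO 3 the lowest of 6 of the 9 tested members. Over all 12144 tested genes, CKO 3 held the lowest deposited CKO value for 3303, and its order after rescaling was not tested. As deposited, 31% of tested genes were highest in CKO 2, which has the lowest FPKM sum of the 6 libraries. The order was not particular to the members. CKO 2 was also the highest CKO library for 10 of 12 tested Notch pathway genes. It was so for 12 of 29 tested other imprinted genes and 5 of 15 tested genes of the IGF axis. CKO 3 was lowest for 15 of 20 tested cell cycle genes and 4 of 29 tested other imprinted genes. Rescaling each library to the same FPKM sum kept CKO 2 the highest for all 10 members, but 71.8% of all tested genes then had this order, so the contrast with other genes depends on the scaling. The denominators of the deposited FPKM were 103%, 109% and 93.6% of the gene-assigned reads in CKO 1, 2 and 3, against 95.3%, 97.8% and 105% in flox controls 1, 2 and 3, and how they were set is not given in the sources used here. Scaled to assigned reads instead, CKO 2 was again highest for all 10 members, as for 51.3% of all tested genes, and limma again called none of the 9 tested members. Mitochondrially encoded genes took 20.7%, 14.4% and 19.6% of reads in CKO 1, 2 and 3, against 18.4% to 21.0% in flox controls. The flox controls had no such shared order, with flox control 3 highest for 5 members, flox control 1 for 4 and flox control 2 for 1.

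**Figure D3:**
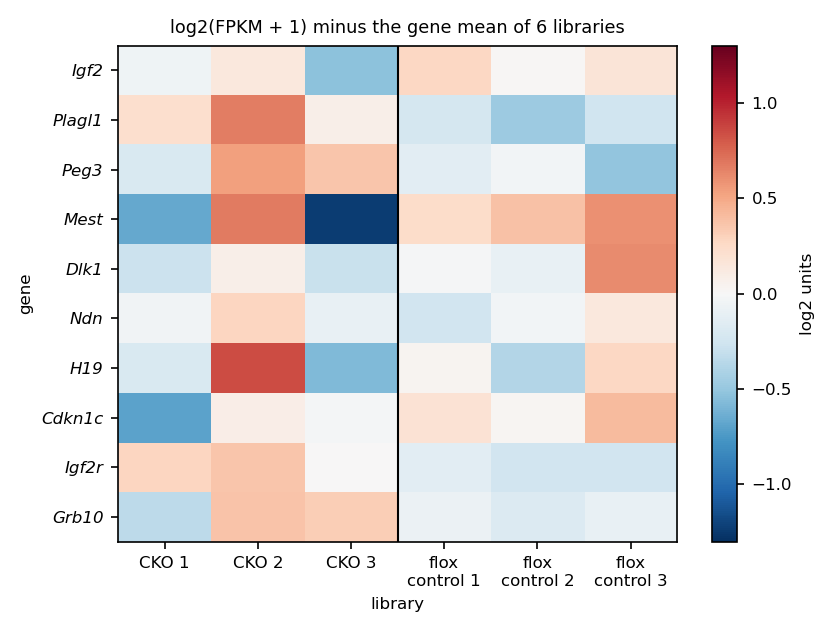
Log2(FPKM + 1) of each imprinted growth gene (rows) in each library (columns, CKO left of the line and flox controls right), minus the mean of the gene over 6 libraries, in log2 units. The CKO 2 column is the reddest of the CKO columns in every row, and Mest spans the widest range, with CKO 2 at 16.6 FPKM and CKO 3 at 3.69 FPKM.

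Markers of other cell types are given beside this order. Over all tested genes, limma called 5.69% higher and 5.49% lower, and 27.7% had an unadjusted p under 0.05. The 8 fibroblast markers, all detected in every library, summed to 719, 946 and 627 FPKM in CKO 1, 2 and 3, against 511 to 660 FPKM in flox controls. Of these, 1 was called higher, Tcf21, a transcription factor of cardiac fibroblasts, at 12.9, 22.5 and 20.4 FPKM in CKO 1, 2 and 3, against 6.70, 6.08 and 7.88 FPKM in flox controls 1, 2 and 3. Of the 8 fibroblast markers, 5 had their highest CKO value in CKO 2, while Dcn, Lum and Pdgfra had it in CKO 1. The 7 endothelial markers, all detected, summed to 235, 309 and 263 FPKM in CKO 1, 2 and 3, against 313 to 321 FPKM in flox controls, and 1 of them, Tie1, fell. The 8 macrophage markers, all detected, with none of 7 tested called by limma and 0 at an unadjusted p under 0.05, summed to 830, 166 and 109 FPKM in CKO 1, 2 and 3, against 135 to 274 FPKM in flox controls. The proliferation marker Mki67 was at 4.10, 4.51 and 0.461 FPKM in CKO 1, 2 and 3, against 2.33, 4.84 and 2.36 FPKM in flox controls 1, 2 and 3. Cardiomyocyte markers summed to 7255, 7729 and 9775 FPKM in CKO 1, 2 and 3, against 9377 to 10064 FPKM in flox controls, and 1 of the 8, Tnni3, fell. Of 7 tested pericyte and smooth muscle markers 1 fell, Abcc9, and the list summed to 546, 463 and 381 FPKM in CKO 1, 2 and 3, against 435 to 793 FPKM in flox controls. Of 5 atrial markers, Nppa, which encodes a natriuretic peptide, rose to 935, 518 and 2057 FPKM in CKO 1, 2 and 3, against 191, 83.5 and 99.5 FPKM in flox controls 1, 2 and 3. Sln, which encodes sarcolipin, fell to 3.34, 1.09 and 0.167 FPKM in CKO 1, 2 and 3, against 21.1, 5.05 and 19.8 FPKM in flox controls 1, 2 and 3. The atrial light chain genes Myl4 and Myl7 also had every CKO library below every flox control but did not pass (limma adjusted p = 0.0534 for Myl4 and 0.0631 for Myl7), and Bmp10 was listed at 0 in flox control 2. The skeletal muscle myosins Myh1, Myh2 and Myh4 held 0 to 2 reads in every library. Of the same list, Actn3 held 0 to 5 reads, Mylpf 8 to 23 and Tnnt3 9 to 25. Ckm held 9963 to 25898 reads, with every CKO library below every flox control in FPKM, and was not called (limma adjusted p = 0.0901). The part of the other cell types in the levels of the imprinted genes was not tested.

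By likeness, measured as the root mean square difference in log2(FPKM + 1) after the mean of each gene was subtracted over 6 libraries, none of the 3 nearest of the 12144 tested genes to Igf2 or to H19 was an imprinted growth gene. Nearest to Igf2 were Sh3tc1 (0.08), Fam78b (0.08) and Hjurp (0.09), in log2 units. Nearest to H19 were the predicted genes Gm19366 (0.18), Gm25604 (0.18) and Gm21769 (0.19). These distances describe the same 6 libraries and carry no test.

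Other imprinted genes were also mostly not called. Of 52 listed, 29 passed the filter and 1 was called by limma, Ppp1r9a, which fell, against 11.2% of all tested genes called. Their median log2 fold change was 0.01. Ppp1r9a, a neuronal actin-binding scaffold gene that is maternally expressed in some mouse tissues, measured 1.34, 0.905 and 0.927 FPKM in CKO 1, 2 and 3, against 2.26, 1.72 and 2.36 FPKM in flox controls 1, 2 and 3 (log2 fold change -0.60, limma adjusted p = 0.0409). That call was lost without CKO 2 (0.108), CKO 3 (0.112) or any 1 flox control (0.145, 0.0587 and 0.134 without flox controls 1, 2 and 3), with no filter (0.0999), with the replicate block (0.0697), and with libraries scaled to 1 common sum (0.0827) or to assigned reads (0.0596). Without flox control 3 the single call among these genes was instead the non-coding RNA gene Peg13 (log2 fold change -0.62, limma adjusted p = 0.0383). Of the 22 paternally expressed genes, 10 were tested and none was called by limma, with 1 at an unadjusted p under 0.05. Of the 30 maternally expressed genes, 19 were tested, 1 was called by limma and 6 had an unadjusted p under 0.05. The groups did not overlap for 7 of the 19, 2 higher and 5 lower in CKO. Over all tested genes, 27.7% had an unadjusted limma p under 0.05 and 34.3% had groups that did not overlap. Peg10, a paternally expressed gene under the filter, held 33, 76 and 57 reads in CKO 1, 2 and 3, against 25, 18 and 34 reads in flox controls 1, 2 and 3, and Usp29, next to Peg3, held 5 to 24 reads in CKO and 7 to 14 reads in flox controls.

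Genes of the IGF axis around Igf2, Igf2r and Grb10 included called genes. Of 22 listed, 15 were tested, 2 rose and none fell, against 5.69% of all tested genes called higher. Their median log2 fold change was 0.49, with 13 of 15 positive. Igf1r, the signalling receptor for IGF1 and IGF2, rose to 4.66, 5.19 and 5.99 FPKM in CKO 1, 2 and 3, against 2.83, 2.31 and 2.29 FPKM in flox controls 1, 2 and 3 (log2 fold change 0.85, SE 0.11, limma adjusted p = 0.00929). Igf2bp2, which binds Igf2 and other messenger RNAs, rose to 2.93, 4.03 and 3.87 FPKM in CKO 1, 2 and 3, against 1.71, 1.06 and 1.23 FPKM in flox controls 1, 2 and 3 (log2 fold change 0.98, SE 0.15, limma adjusted p = 0.0124). The Igf1r call held without each library in turn, and that of Igf2bp2 was lost without flox control 3 (0.051). Among genes that did not pass, the IGF2-preferring binding protein gene Igfbp6 averaged 9.60 ± 3.40 FPKM in CKO and 4.82 ± 0.425 FPKM in flox controls (SD, n = 3 each, limma adjusted p = 0.0658). Its limma adjusted p was 0.0302 without CKO 2 and 0.0196 with all libraries scaled to 1 common sum, and 0.0309 with them scaled to assigned reads.

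Of 22 CDK inhibitor and cell cycle genes, the family around Cdkn1c, 20 were tested, 2 rose and none fell, against 5.69% of all tested genes called higher and 5.49% called lower. Their median log2 fold change was -0.15. Ccnd2, a D-type cyclin gene, rose to 25.9, 27.2 and 27.0 FPKM in CKO 1, 2 and 3, against 11.8, 11.9 and 12.6 FPKM in flox controls 1, 2 and 3 (log2 fold change 1.08, SE 0.08, limma adjusted p = 0.00293). Cdkn1a, which encodes p21, a relative of p57Kip2 and a p53 target, rose to 47.6, 92.8 and 68.0 FPKM in CKO 1, 2 and 3, against 18.7, 30.3 and 7.38 FPKM in flox controls 1, 2 and 3 (log2 fold change 1.97, limma adjusted p = 0.0479). The Cdkn1a call was lost without CKO 2 (0.128), CKO 3 (0.12), flox control 1 (0.128) or flox control 3 (0.076). It was also lost with a pseudocount of 0.1 (0.0512) or 0.01 (0.0521), with no filter (0.112), with no variance trend (0.0504) and with limma's robust option (0.0534).

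None of 12 tested Notch pathway genes, the family to which Dlk1 is related, was called by limma, against 11.2% of all tested genes. Against 27.7% of all tested genes, 1 of the 12 had an unadjusted limma p under 0.05. That gene was Notch2 (log2 fold change -0.43, limma adjusted p = 0.176), and Hes1, a Notch target, had a log2 fold change of -0.41 (0.19). Of 10 tested genes that set or keep imprints, 1 fell, against 5.49% of all tested genes called lower. Dnmt3a, a DNA methyltransferase gene, fell to 4.72, 4.84 and 4.66 FPKM in CKO 1, 2 and 3, against 6.32, 6.03 and 7.79 FPKM in flox controls 1, 2 and 3 (log2 fold change -0.42, limma adjusted p = 0.0483). Its call was lost when any 1 library was left out (limma adjusted p 0.0705 to 0.125), with libraries scaled to 1 common sum (0.249) or to assigned reads (0.128), with no filter (0.101), with no variance trend (0.0574) and with the replicate number as a block (0.0987). DNA methylation was not measured in these files.

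**Figure D4:**
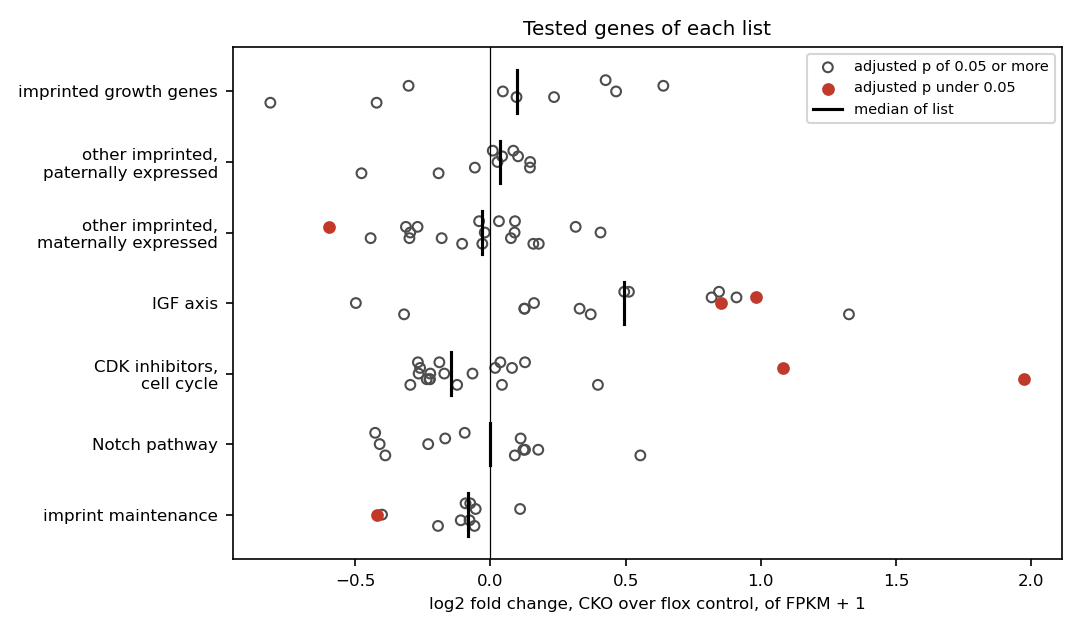
Log2 fold change of FPKM + 1, CKO over flox control (x axis), for every tested gene of each list (rows), filled red where limma's adjusted p was under 0.05 and open otherwise, with the list median as a black line. The 9 imprinted growth genes are all open and lie on both sides of 0, while filled points stand to the right in the IGF axis and the CDK inhibitor and cell cycle lists. Filled points to the left of 0 are Ppp1r9a in the maternally expressed list and Dnmt3a in the imprint maintenance list.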

How the data were processed

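Poly-T selected messenger RNA of 6 mouse hearts was sequenced, 3 libraries per genotype, grouped by sample title. The authors deposited FPKM values. The submitters' processing notes name the build GRCm38.p6 and, among tools, CASAVA, DESeq2 1.20.0, HISAT2 2.0.5 and featureCounts 1.5.0-p3; the step that made the values, and use of strand, are not given in the sources used here. FPKM was multiplied by length and divided by the smallest positive product of each library, which was taken as 1 read. This returned whole numbers for 100% of genes (tolerance 0.001), which as reads summed to 17434296 to 19360428 per library. Deposited coordinates and lengths of all 10 members were identical to GENCODE M21. Genes averaging 1 FPKM or more were tested two-sided on log2(FPKM + 1) in limma 3.58.1 (R 4.3.3) for genotype alone, with the trend option and Benjamini-Hochberg adjustment over 12144 genes. Alternatives changed the pseudocount, filter, scaling, trend, robust option, replicate block and left-out library, and used limma voom on the reads or scaling to assigned reads, both added after seeing the data. SDs and means given in the text were computed in R 4.3.3, and the figures were drawn with Python 3.11.15. The procedure was tested on simulated data. The members and gene lists were chosen with earlier results of these data known. Genes named are the 10 members, Ythdc1, called imprinted genes, the imprinted genes Meg3, Kcnq1ot1, Airn, Peg10, Usp29 and Magel2, genes sharing exonic bases with a member, and up to 5 genes per further list with the smallest adjusted p, and the 3 genes most like Igf2 and H19; marker genes, Slc22a3, Rtl1, Peg13 and Ube3a were named in addition after their values were seen. Per the labels, libraries of a group are independent biological replicates.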

Additional observations from a re-analysis of the deposited data

How the results depend on the processing

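The number of called genes was 1358 with the settings above, 798 with no filter on low values, 715 under the replicate block and 316 (without flox control 1) to 1492 (without CKO 1) with single libraries left out. The number of called imprinted growth genes was 0, and 1 with limma voom on recovered reads (an alternative chosen after seeing the data); with 1 library left out it was 0 to 2. The number of other imprinted genes called was 1; it was 0 with no filter, with a filter at a mean of 5 FPKM, after rescaling to the same sum or to assigned reads and with the replicate block, 2 with limma voom (Ppp1r9a and Ube3a), and 0 to 1 with 1 library left out. The log2 fold change of Ythdc1 was -0.50 after rescaling to the same sum (limma adjusted p = 0.0888), -0.54 with the replicate block (0.0542) and -0.60 to -0.50 with 1 library left out. Leaving out 1 library gave log2 fold changes of -0.36 to 0.35 for H19, -0.02 to 0.19 for Ndn and -0.14 to 0.24 for Meg3, so their sign turned; the cause was not tested. The replicate numbers share only a number: same-numbered libraries correlated at 0.139, 0.0597 and -0.0055 across genes in their deviations from the group means, and not every library correlated best with its own number. The planned edgeR and DESeq2 fits were not run, and limma voom on recovered reads was run in their place. With 3 libraries per group, precision is limited, and the low reads of Igf2 and Dlk1 limit it further.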
